A study of Rattus norvegicus with 17 samples.

Results

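Livers of rat pups whose mothers stayed on a choline-deficient diet through pregnancy and lactation (DD) were set against livers of pups whose mothers received adequate choline in both periods (NN), across all genes that a probe set with a single gene symbol names. The comparison rests on 8 of the 17 arrays of the study, 4 DD and 4 NN, taken by their titles. Of 14557 such genes, 12912 had enough signal to be tested, meaning a value above the 25th percentile of the whole table (1.73 on the log2 scale) in at least 4 arrays. The other 2 groups changed diet at birth: ND pups had deficient choline in lactation alone (4 livers) and DN pups in pregnancy alone (5 livers).

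All animals were male Wistar rats killed at 24 days of age, with 1 pup taken from each litter, so replicates were separate animals of separate mothers. Every mother, NN mothers included, had first been fed a choline-deficient AIN-93 M diet for 16 weeks to give her a fatty liver, and was mated with a male on standard AIN-93 M. The adequate diet of pregnancy and lactation was standard AIN-93 G. The NN group is therefore a repletion group, not a group that never met deficiency, and no group of the study lacks the mother's earlier deficiency. The pups were exposed through the placenta, milk and whatever maternal feed they ate before weaning, and their own choline status is not among the values.

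Choline is the head group of phosphatidylcholine, the main phospholipid of cell membranes and of the coat of very low density lipoprotein (VLDL), the particle in which the liver exports triglyceride. The liver takes choline up through choline-like transporters and builds phosphatidylcholine through the CDP-choline pathway, or makes it from phosphatidylethanolamine with methyl groups carried by S-adenosylmethionine. Choline is also oxidised to betaine, a methyl donor that turns homocysteine back into methionine, and diets low in choline are a standard way to produce fatty liver in rodents.

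The tissue label reads liver, although a free-text field names the prostate cancer line LnCap. Albumin (Alb) averaged 11.65 ± 0.05 log2 units in DD and 11.65 ± 0.11 in NN livers, and transthyretin (Ttr) averaged 11.22 ± 0.12 in DD and 11.22 ± 0.13 in NN livers (SD, n = 4 each), at the top of the measured range, so the values were read as liver. No label or header gives a batch. The 17 arrays correlated with each other at 0.920 to 0.979. The liver DD 3 had the lowest mean correlation with the other arrays (0.940). On the first principal component, which held 29.9% of the variance, DD livers lay at -20.2, 2.66, -29.3 and -22.2 and NN livers at -9.86, 19.4, -23.5 and -22.9, so that NN 2, and to a lesser degree DD 2, stood apart from their own groups. The spread of a whole array, its median, its mean correlation and this component did not separate the groups (2-sided exact permutation tests, p = 0.486, 0.857, 0.457 and 0.6; adjusted over the 4 measures 0.8, 0.857, 0.8 and 0.8; the smallest p that 4 against 4 allows is 0.0286). Of 102 genes named below whose difference was at least its standard error, 27 moved by over 1.5 times or changed sign without DD 3 or without NN 2. Values without these livers stand beside most gene lists they change and beside some of the genes described liver by liver. A gene printed without such values was not necessarily stable. Leaving out DD 2 did not enter the count of 27. Without DD 2 the gene Rgs4 differed by 0.53, against 0.89 with all arrays.

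No gene passed the test between continuous deprivation and full repletion. In a limma fit, 0 of 12912 genes (0.0%) had a Benjamini-Hochberg adjusted p under 0.05, and the smallest adjusted p was 0.999. At an unadjusted p under 0.05 there were 462 genes (3.58% of those tested), 172 with a higher mean in DD (1.33%) and 290 with a lower mean in DD (2.25%), fewer than the 645.6 that the threshold alone would give. Without DD 2 this number was 808, still with 0 genes passing. DD and NN values did not overlap in 232 genes (1.8%), 101 with all DD livers above all NN livers (0.782%) and 131 with all DD livers below (1.01%). Over all genes tested the median difference was -0.03 log2 units, with 5659 genes higher in DD (43.8%) and 7253 lower in DD (56.2%). The median size of a difference was 0.116 log2 units and the 95th percentile 0.391, and 8 genes differed by more than 1 log2 unit. Differences and signals below are on the log2 scale, and for every gene named the adjusted p of DD against NN in this fit was at least 0.999. Unadjusted p-values are given to rank genes and carry no call.

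**Figure D1:**
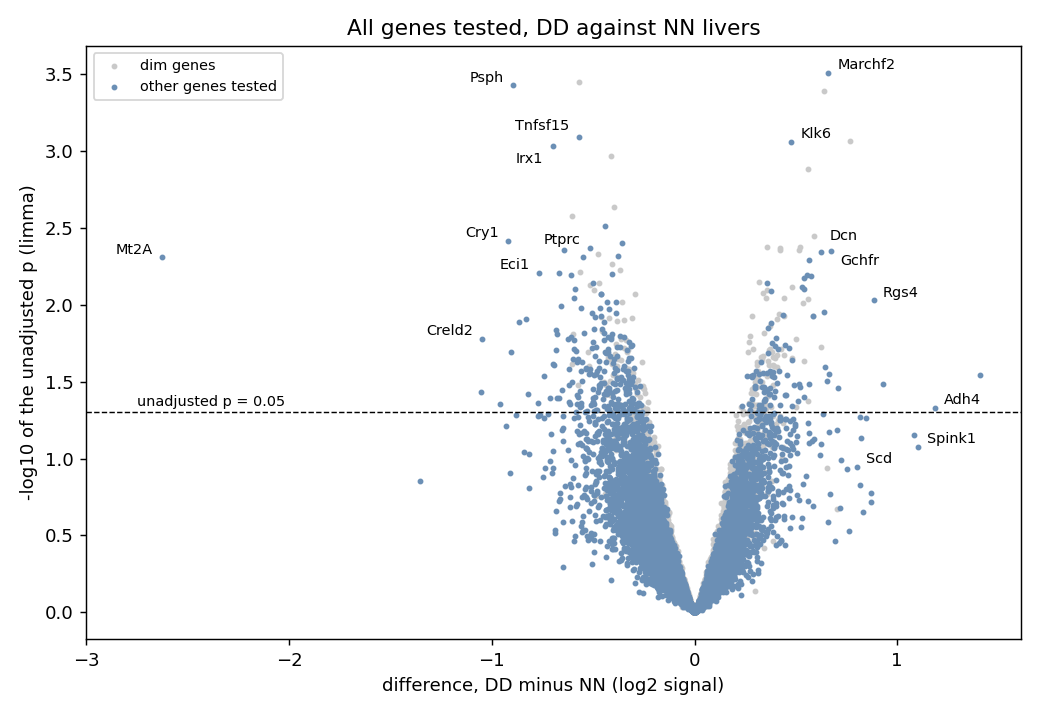
Each point is 1 of 12912 genes, placed by the difference DD minus NN (x axis, log2 signal) and the -log10 of its unadjusted p (y axis, limma), with dim genes in grey and the dashed line at an unadjusted p of 0.05. Psph and Mt2A lie to the left and Marchf2 to the right, and 462 of the 12912 lie above the line.

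The test was tried on simulated arrays with the real means and spreads, in which 200 of 12912 genes were changed. Noise was drawn separately for each gene, so variation that genes share across an array was not simulated. There the limma test of DD against NN found 32.8% of the 1.5-fold changes, 76.1% of the 2-fold and 100% of the 4-fold, with 11 false calls. How far these shares hold for the real arrays was not tested. The median standard error of a difference was 0.173 log2 units. In the simulation most 1.5-fold changes were missed, and smaller ones were not tried. The 95% confidence interval is therefore given for the genes of choline handling.

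Genes that move choline and build phosphatidylcholine stood close together in DD and NN livers. Of 16 tested, 10 were higher and 6 lower in DD, 0 had an unadjusted p under 0.05, and the median difference was 0.04, and -0.03 without NN 2. Pcyt1a, the rate-limiting enzyme of the CDP-choline pathway, measured 4.74, 4.66, 4.07 and 4.88 in DD livers, against 4.27, 4.53, 4.63 and 4.69 in NN livers. The groups overlapped, and the difference was 0.05 (95% interval -0.28 to 0.39). Pemt, which makes phosphatidylcholine by methylating phosphatidylethanolamine, measured 8.97, 9.03, 8.43 and 8.63 in DD livers, against 8.67, 8.91, 8.47 and 8.87 in NN livers, a difference of 0.03 (-0.37 to 0.44). Choline kinase beta (Chkb), the first step of the CDP-choline pathway, differed by -0.25 (-0.69 to 0.19); 3 DD livers measured 5.04, 5.15 and 5.09, and DD 3 measured 4.01, against 4.83, 5.04, 4.97 and 5.45 in NN livers. Without DD 3 the difference was 0.03, of the opposite sign. Ethanolamine kinase 1 (Etnk1) differed by -0.23 (-0.54 to 0.08), and the phospholipase Pla2g6 by -0.21 (-0.51 to 0.09). With all arrays kept, the intervals of Pcyt1a and Pemt leave out a change of 1.5-fold in either direction. Without DD 3 the differences were 0.23 for Pcyt1a and 0.15 for Pemt, and intervals for that setting are not given.

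Choline oxidation and the methionine cycle followed the same course, with 10 of 16 genes higher and 6 lower in DD and a median of 0.05. Bhmt, which uses betaine to remethylate homocysteine, measured 10.06, 9.89, 8.76 and 9.73 in DD livers, against 9.61, 9.14, 9.59 and 9.21 in NN livers, a difference of 0.22 (-0.37 to 0.81). DD 3 was below every NN liver and the other DD livers were above them all. Without DD 3 the difference of Bhmt was 0.50. Choline dehydrogenase (Chdh) differed by -0.11 (-0.70 to 0.48), the liver's methionine adenosyltransferase Mat1a by 0.01 (-0.29 to 0.32) and glycine N-methyltransferase (Gnmt) by 0.24 (-0.55 to 1.02). Nnmt, which methylates nicotinamide with S-adenosylmethionine, was the 1 gene of the list with an unadjusted p under 0.05. It measured 3.43, 3.47, 3.41 and 3.07 in DD livers, against 2.99, 2.58, 3.18 and 2.96 in NN livers, a difference of 0.42 ± 0.17 (SE; unadjusted p = 0.0268). DD 4 lay inside the NN range and the other DD livers above it. The median of this list was 0.16 without DD 3, 0.10 without NN 2 and 0.25 without both.

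The gene of smallest p among those lower in DD, leaving dim genes aside, was Psph, phosphoserine phosphatase, which carries out the last step of serine synthesis; serine feeds the folate cycle and so the remethylation of homocysteine. Psph measured 3.75, 3.88, 3.28 and 3.73 in DD livers, against 4.39, 4.64, 4.66 and 4.54 in NN livers. Every DD liver was below every NN liver. The difference was -0.89 ± 0.20 (SE), a 1.86-fold lower level (unadjusted p = 0.000374, adjusted p = 0.999). Pups deprived in 1 period alone had means close to the DD mean, 3.80 ± 0.40 in ND and 3.74 ± 0.35 in DN livers, beside 3.66 ± 0.26 in DD and 4.56 ± 0.12 in NN livers (SD). Psph was the only gene of serine synthesis proper that was tested. Among the other serine and folate genes, 11 of 14 were higher in DD, where 43.8% of all genes were higher. None of the 14 had an unadjusted p under 0.05, and the median of all 15 was 0.06. Without DD 2, 8 of the 15 were higher with a median of 0.03, and without DD 1, 9 with a median of 0.01. The mitochondrial serine hydroxymethyltransferase Shmt2 differed by -0.37 ± 0.32, the folate carrier Slc46a1 by -0.40 ± 0.26 and folylpolyglutamate synthase (Fpgs) by 0.29 ± 0.24 (SE). Without DD 3 and NN 2 Shmt2 differed by 0.05.

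**Figure D2:**
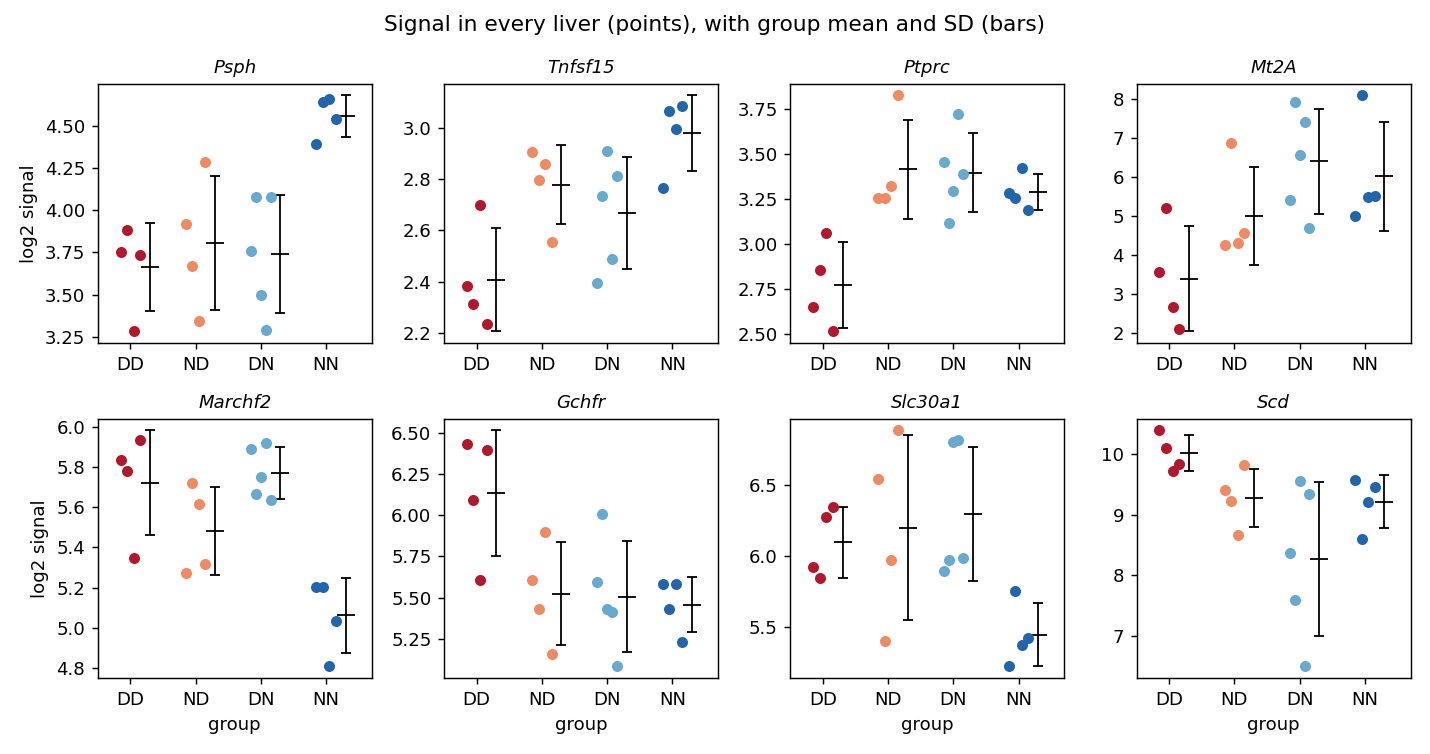
Log2 signal (y axis) of 8 genes in every liver of the 4 groups (x axis, DD, ND, DN and NN), with group mean and SD as bars. For Psph the 4 DD livers sit between 3.28 and 3.88, below the 4 NN livers between 4.39 and 4.66, and for Mt2A DD 2 at 5.21 is above NN 1 at 5.00.

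Among genes higher in DD the smallest p belonged to Marchf2, a membrane-bound ubiquitin ligase. It measured 5.83, 5.78, 5.35 and 5.93 in DD livers, against 5.21, 5.20, 4.81 and 5.03 in NN livers. The groups did not overlap, and the difference was 0.66 ± 0.15 (SE), a 1.58-fold higher level (unadjusted p = 0.00031). Gchfr, the regulator that mediates feedback on GTP cyclohydrolase, measured 6.43, 6.09, 5.61 and 6.40 in DD livers, against 5.58, 5.43, 5.58 and 5.23 in NN livers. All DD livers were above all NN livers, by a mean of 0.68 ± 0.21. Thtpa, thiamine triphosphatase, measured 4.45, 4.17, 4.26 and 4.17 in DD livers, against 3.73, 3.77, 3.19 and 4.14 in NN livers, a difference of 0.55 ± 0.18 with NN 4 just under the DD livers. Pdk1, a kinase that inhibits pyruvate dehydrogenase, measured 6.30, 6.69, 6.61 and 6.84 in DD livers, against 5.97, 6.33, 5.90 and 6.08 in NN livers. Its groups touched, since DD 1 lay below NN 2, and the difference was 0.54 ± 0.18. The serine protease Klk6 (0.48 ± 0.12), the transcription factor Sox4 (0.36 ± 0.12), the gluconate kinase Idnk (0.53 ± 0.18), the LIM protein Pdlim2 (0.57 ± 0.19), the zinc finger gene Zfp494l1 (0.56 ± 0.18), the odorant receptor Or6d12b (0.54 ± 0.18) and the pseudogene Park7-ps2 (0.38 ± 0.13) completed, with Dcn below, the 12 of smallest p.

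On the lower side Psph was followed by Tnfsf15, a TNF family cytokine, which measured 2.38, 2.31, 2.70 and 2.24 in DD livers, against 2.76, 3.07, 3.00 and 3.09 in NN livers. These are low signals, with every DD liver below every NN liver, and the difference was -0.57 ± 0.14 (SE; unadjusted p = 0.000812). The homeobox gene Irx1 differed by -0.70 ± 0.18, the transcription factor Rbpjl by -0.44 ± 0.13, the plasminogen receptor Plgrkt by -0.36 ± 0.11 and the NEDD8-conjugating enzyme Ube2m by -0.64 ± 0.20. Pde8b, a cyclic AMP phosphodiesterase, and the endosomal GTPase Rab4a differed by -0.38 ± 0.12 and -0.55 ± 0.17. The clock gene Cry1, the leukocyte gene Ptprc, the oxidation gene Eci1 and Mt2A, described with their groups below, were the others of the 12.

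Among genes whose DD and NN livers did not overlap, the largest differences on the higher side were those of Adh4 and Spink1, and on the lower side those of Creld2, Psph and Ech1. Adh4, an alcohol and retinol dehydrogenase, measured 5.39, 5.82, 4.70 and 5.54 in DD livers, against 3.80, 4.61, 3.93 and 4.38 in NN livers. The difference was 1.19 ± 0.55 (SE), a 2.28-fold higher level, but ND and DN livers, which also had high means (5.69 and 5.65), scattered with SDs of 1.19 and 1.14. Spink1, a trypsin inhibitor of the pancreas that the liver also makes, measured 3.97, 4.13, 3.32 and 3.82 in DD livers, against 2.90, 2.23, 2.97 and 2.73 in NN livers, a difference of 1.10 ± 0.60. Rgs4, a brake on G protein signalling, differed by 0.89 ± 0.30, with DD 2 at 4.67 above the other DD livers at 3.36, 3.32 and 3.00, against NN livers at 2.79, 2.73, 2.87 and 2.43. The pseudogene Ndufs6-ps1 differed by 0.71 ± 0.31; whether its probes also bind transcripts of related genes was not tested. The lower side also held Eci1 and Ehhadh, described with Creld2 and Ech1 below, the glucuronosyltransferase Ugt2a3 (-0.71 ± 0.42), Cadps2, which primes dense-core vesicles for release (-0.69 ± 0.25), and Cct3, a subunit of the chaperonin that folds actin and tubulin (-0.68 ± 0.25).

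Dim genes, those with a mean under the median of the table (2.58), took some of the smallest p-values. Gfod2 (0.64 ± 0.15), the odorant receptor Or1j13b (0.77 ± 0.19) and Flt3, a receptor of blood progenitors and dendritic cells (0.56 ± 0.15), were higher in DD. Ftsj3-ps1 (-0.57 ± 0.13), Gpr45 (-0.41 ± 0.11) and Or8s10 (-0.40 ± 0.11) were lower in DD. For Gfod2 the NN, ND and DN means, and for Ftsj3-ps1 the DD and DN means, were under the floor of 1.73 set for testing, so these differences reach below that floor.

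The largest difference of any gene tested was that of metallothionein Mt2A, a small cysteine-rich protein that binds zinc and copper and whose transcription rises with zinc, glucocorticoids and fasting. Mt2A measured 3.57, 5.21, 2.68 and 2.12 in DD livers, against 5.00, 8.09, 5.49 and 5.51 in NN livers. DD 2 was above NN 1, the other DD livers were below every NN liver, and NN 2 was far above the rest. The difference was -2.63 ± 0.82 (SE), a 6.18-fold lower level (unadjusted p = 0.00491, adjusted p = 0.999), and -1.94 without NN 2. ND livers averaged 5.01 ± 1.25 and DN livers 6.41 ± 1.35 (SD), both above the DD mean of 3.40 ± 1.35. Slc30a1, the zinc exporter of the plasma membrane and, like metallothionein, a target of the zinc sensor MTF-1, was on the other side. It measured 5.93, 5.85, 6.28 and 6.35 in DD livers, against 5.23, 5.75, 5.37 and 5.42 in NN livers, all DD livers above all NN livers, with a difference of 0.66 ± 0.28 (unadjusted p = 0.0312). Mt3, near background at 2.22 in both groups, and Mtf1, at 4.62 ± 0.30 in DD and 4.83 ± 0.24 in NN livers (SD), were looked up after the values of Mt2A were seen. Their differences were -0.00 ± 0.15 and -0.21 ± 0.24 (SE).

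The promoters of Mt2A and Slc30a1 are shown because both genes answer to MTF-1 and their differences had opposite signs. Both sequences are from RefSeq (GRCr8), 250 bases before to 50 after the annotated start, written 5′ to 3′ on the gene's strand. Capitals mark the metal response element, searched as TGCACNC or TGCGCNC on both strands. The Mt2A window, chr19:10838659-10838958 on the minus strand, holds 4 matches and the Slc30a1 window, chr13:106021769-106022068 on the plus strand, holds 2. At least 1 match stands in 25% of 27457 promoters of that length, and in 32.3% of the 10449 that belong to genes tested.
Mt2A: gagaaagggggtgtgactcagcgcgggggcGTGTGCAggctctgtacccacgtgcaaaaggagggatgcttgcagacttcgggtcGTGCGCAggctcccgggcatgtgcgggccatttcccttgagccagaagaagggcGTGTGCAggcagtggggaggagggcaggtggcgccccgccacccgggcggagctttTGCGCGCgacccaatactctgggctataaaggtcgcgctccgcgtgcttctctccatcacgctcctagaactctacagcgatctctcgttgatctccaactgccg
Slc30a1: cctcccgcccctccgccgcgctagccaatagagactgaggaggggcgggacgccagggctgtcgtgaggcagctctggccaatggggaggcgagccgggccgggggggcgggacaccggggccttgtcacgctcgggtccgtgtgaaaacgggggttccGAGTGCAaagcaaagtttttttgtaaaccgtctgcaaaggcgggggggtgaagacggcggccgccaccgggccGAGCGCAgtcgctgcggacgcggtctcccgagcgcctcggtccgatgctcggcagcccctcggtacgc
A match describes the letters and does not show that a factor binds there.

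Genes of cholesterol synthesis were mostly lower in DD, and the size of that difference rested on NN 2. The pathway runs from acetyl-CoA through mevalonate and squalene and is driven by the transcription factor SREBP2, encoded by Srebf2. Of 17 genes tested, 16 were lower and 1 higher in DD, with a median of -0.32, beside 56.2% lower and a median of -0.03 over all genes; 0 of the 17 had an unadjusted p under 0.05. Without NN 2 the count was 12 lower and 5 higher with a median of -0.13, and without both DD 3 and NN 2 it was 10 lower and 7 higher with a median of -0.05. The mean level of the list, relative to the 17-array mean, was -0.33, -0.41, -0.45 and 0.00 in DD livers, against 0.01, 0.60, -0.19 and -0.29 in NN livers. DD 4 lay within the NN range, as NN 2 was the highest of the 8.

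Within the pathway, Idi1, isopentenyl diphosphate isomerase, measured 4.72, 4.36, 5.33 and 5.30 in DD livers, against 5.23, 7.32, 5.72 and 5.09 in NN livers. NN 2, and less so NN 3, lay above all DD livers and the other NN livers lay within their range; the difference was -0.91 ± 0.57 (SE), and -0.42 without NN 2. Sqle, the squalene epoxidase, measured 5.39, 5.14, 5.07 and 6.42 in DD livers, against 5.70, 7.03, 6.45 and 5.28 in NN livers, a difference of -0.61 ± 0.47, and -0.31 without NN 2. Tm7sf2, a sterol reductase, measured 5.88, 5.77, 5.85 and 6.19 in DD livers, against 6.65, 6.24, 6.13 and 6.58 in NN livers. Its groups came close to separating, with only DD 4 above the lowest NN liver, and differed by -0.48 ± 0.29. Srebf2 itself measured 5.99, 6.10, 5.67 and 5.96 in DD livers, against 6.32, 6.97, 5.98 and 6.25 in NN livers, a difference of -0.45 ± 0.25 (unadjusted p = 0.0871). Squalene synthase (Fdft1) differed by -0.45 ± 0.23. Without NN 2 Srebf2 differed by -0.25 and Fdft1 by -0.21.

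Promoters of 14 of the 17 genes were in the RefSeq table. The sterol regulatory element searched as TCACNCCAC was in 0 of the 14 windows, and in 1.13% of 27457. The CCAAT box, which NF-Y binds beside SREBP2 at sterol genes, was in 12 of the 14, and in 37.7% of 27457. Idi1 is shown as the gene of the list with the largest difference, with the CCAAT box (ATTGG on the other strand) in capitals, at chr17:66547475-66547774 on the minus strand.
Idi1: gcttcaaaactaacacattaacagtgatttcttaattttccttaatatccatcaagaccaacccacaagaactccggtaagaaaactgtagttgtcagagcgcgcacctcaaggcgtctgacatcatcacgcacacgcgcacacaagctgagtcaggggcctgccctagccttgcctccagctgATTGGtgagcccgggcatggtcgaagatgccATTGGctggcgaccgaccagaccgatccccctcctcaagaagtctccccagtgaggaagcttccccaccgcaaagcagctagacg

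Lipogenesis, the making of fatty acids and triglyceride from carbohydrate, counted 10 of 19 genes higher and 9 lower in DD with a median of 0.04, and its direction depended on single livers. Without NN 2 the count was 13 higher and 6 lower with a median of 0.20, without DD 3 it was 12 and 7 with 0.17, and without both it was 15 and 4 with 0.28. Without NN 3 it was 6 higher and 13 lower with a median of -0.12, without DD 2 8 and 11 with -0.11, and without NN 4 9 and 10 with -0.04. Scd, the stearoyl-CoA desaturase that makes oleic acid, measured 10.39, 10.10, 9.73 and 9.84 in DD livers, against 9.58, 8.60, 9.21 and 9.46 in NN livers. All DD livers were above all NN livers. The difference was 0.80 ± 0.48 (SE), a 1.74-fold higher level (unadjusted p = 0.113). The error is pooled over all groups, and DN livers scattered most, at 8.27 ± 1.27 (SD). Srebf1, the main lipogenic regulator, overlapped fully, at 9.12, 9.02, 8.16 and 7.94 in DD livers, against 9.04, 8.74, 8.20 and 9.22 in NN livers. Its difference was -0.24 ± 0.52, smaller than its error. Pnpla3, an acyl hydrolase of lipid droplets known for its variant in human fatty liver, measured 6.57, 6.31, 5.93 and 7.07 in DD livers, against 7.55, 4.69, 5.08 and 5.70 in NN livers, a difference of 0.72 ± 0.55 with NN 1 the highest of the 8, and 0.36 without NN 2. Liver pyruvate kinase (Pklr) differed by 0.43 ± 0.27, and Mogat1, near background, by -0.30 ± 0.14 (unadjusted p = 0.05).

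Fatty acid oxidation held several of the larger differences on the lower side. Of 40 genes, 28 were lower and 12 higher in DD with a median of -0.09, and 4 had an unadjusted p under 0.05, all lower in DD; over all genes 56.2% were lower and 2.25% lower at that p. Without NN 2 the count was 17 lower and 23 higher with a median of 0.02, so the direction of the list as a whole rested on that liver; without NN 4 the median was -0.21, without DD 2 -0.15 and without NN 1 -0.14. Eci1, which isomerises unsaturated acyl-CoA in mitochondria, measured 6.85, 6.98, 5.81 and 6.87 in DD livers, against 7.28, 7.62, 7.13 and 7.55 in NN livers, a difference of -0.77 ± 0.25 (SE; unadjusted p = 0.0062), and -0.49 without DD 3, its lowest liver. Acaa2, the mitochondrial thiolase, measured 8.87, 9.09, 8.79 and 8.98 in DD livers, against 9.36, 9.82, 9.19 and 9.59 in NN livers, a difference of -0.56 ± 0.20. Ehhadh, the bifunctional enzyme of peroxisomes, measured 6.53, 6.86, 6.31 and 6.56 in DD livers, against 7.48, 7.67, 6.92 and 7.03 in NN livers, a difference of -0.71 ± 0.32. In all 3 genes every DD liver was below every NN liver.

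Acot2, a mitochondrial acyl-CoA thioesterase, differed by -0.65 ± 0.29 with groups that overlapped. Ech1, an isomerase of unsaturated fatty acids that was not in the list, measured 6.69, 6.96, 6.12 and 6.56 in DD livers, against 7.38, 8.09, 7.06 and 7.13 in NN livers. It too separated the groups, by -0.83 ± 0.30, and by -0.45 without DD 3 and NN 2. The regulator Ppara differed by -0.07 ± 0.21 and the carnitine transferase Cpt1a by 0.31 ± 0.53, each by less than its error.

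Lipid droplet and VLDL genes, through which stored fat is coated, broken down or exported, counted 14 lower and 9 higher in DD of 23. Over all genes 56.2% were lower, a share close to this list's. The median was -0.12, and -0.04 without DD 3 and NN 2, and 0 genes had an unadjusted p under 0.05. Plin2, the droplet coat protein that follows liver fat, measured 7.29, 7.75, 6.32 and 6.91 in DD livers, against 7.45, 7.70, 7.37 and 8.10 in NN livers, a difference of -0.59 ± 0.35 (SE; unadjusted p = 0.11). DD 2 lay within the NN range, and without DD 3 the difference was -0.34. Cidec, which enlarges droplets, differed by -0.12 ± 0.34. Apob, the structural protein of VLDL, differed by -0.13 ± 0.12, and Mttp, which loads lipid onto it, by -0.29 ± 0.22, or -0.17 without either DD 3 or NN 2. The lipase cofactor Abhd5 differed by -0.29 ± 0.17, with DD 3 at 6.04 below the other DD livers at 6.71, 6.78 and 6.71, against NN livers at 7.13, 6.93, 6.51 and 6.83; without DD 3 the difference was -0.11.

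**Figure D3:**
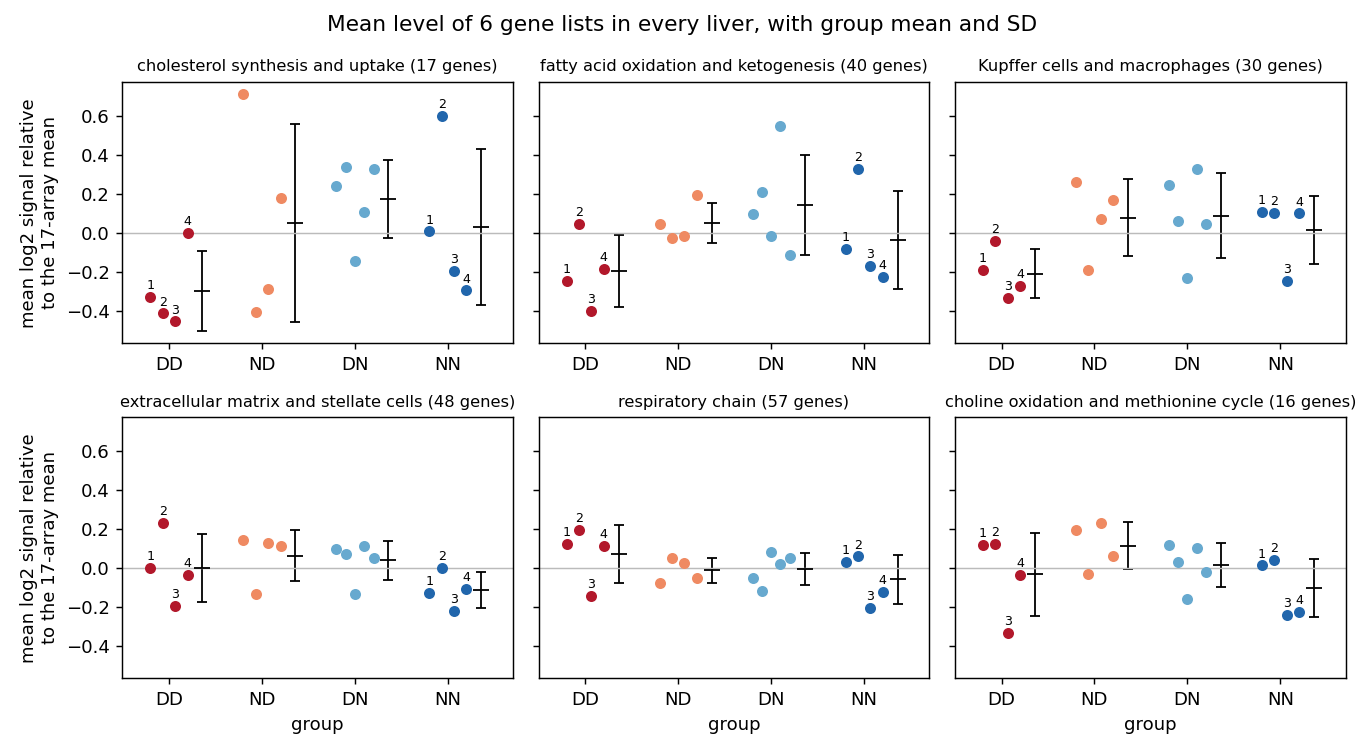
Mean log2 signal of 6 gene lists relative to the 17-array mean (y axis) in every liver of the 4 groups (x axis), with group mean and SD as bars and replicate numbers on DD and NN points. In the cholesterol panel NN 2 stands at 0.60 while the other NN livers lie between -0.29 and 0.01, and in the Kupffer panel NN 3 at -0.24 lies among the DD livers, which run from -0.33 to -0.04.

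Genes of the mitochondrial respiratory chain, which passes electrons to oxygen and drives ATP synthase, leaned the other way. Of 57 tested, 39 were higher and 18 lower in DD with a median of 0.15, where 43.8% of all genes were higher; 1 of the 57 had an unadjusted p under 0.05. The list mean was 0.12, 0.20, -0.14 and 0.11 in DD livers, against 0.03, 0.06, -0.20 and -0.12 in NN livers. DD 3 was lower than all NN livers but NN 3, and the other DD livers were above all NN livers. Leaving out 1 array at a time, the median lay between 0.08, without NN 3 or without DD 1, and 0.22, without DD 3, and without DD 3 and NN 2 it was 0.25 with 53 of 57 higher. By complex, 18 of 27 genes of complex I, 3 of 4 of complex II, 4 of 6 of complex III with cytochrome c, 6 of 8 of complex IV and 8 of 12 of ATP synthase were higher in DD.

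The complex I subunit Ndufs8 measured 6.86, 7.23, 6.92 and 7.18 in DD livers, against 6.86, 6.82, 6.26 and 6.73 in NN livers. The groups met at 6.86 without crossing, and the difference was 0.38 ± 0.16 (SE; unadjusted p = 0.0289). The complex I subunits Ndufb5 and Ndufb8 differed by 0.33 ± 0.16 and 0.41 ± 0.20, and the Rieske protein of complex III, Uqcrfs1, by 0.46 ± 0.24. Atp5f1a, a catalytic-head subunit of ATP synthase, differed by 0.17 ± 0.13.

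Extracellular matrix genes were mostly higher in DD. Of 48 tested, 36 were higher and 12 lower with a median of 0.09, and 4 had an unadjusted p under 0.05, all higher in DD; over all genes 43.8% were higher and 1.33% higher at that p. Without DD 3 and NN 2, a pair chosen after seeing the data, the count was 40 higher and 8 lower with a median of 0.16. The list mean was -0.00, 0.23, -0.19 and -0.04 in DD livers, against -0.13, 0.00, -0.22 and -0.11 in NN livers. DD 2 lay above every NN liver, and the other DD livers lay within the NN range. The 8 fibrillar and associated collagens were all higher, with a median of 0.28. Dcn, decorin, a small proteoglycan that binds collagen, measured 3.40, 3.87, 3.54 and 3.40 in DD livers, against 3.00, 3.07, 2.64 and 3.00 in NN livers. All DD livers were above all NN livers, and the difference was 0.62 ± 0.19 (SE), a 1.54-fold higher level (unadjusted p = 0.00456). ND and DN livers had means like the DD mean, 3.50 ± 0.22 and 3.60 ± 0.40 beside 3.55 ± 0.22 in DD and 2.93 ± 0.19 in NN livers (SD).

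Col1a1, the main chain of scar collagen, measured 6.24, 6.79, 5.82 and 6.01 in DD livers, against 5.50, 5.35, 5.45 and 5.97 in NN livers. NN 4 lay within the DD range, and the difference was 0.64 ± 0.26 (unadjusted p = 0.0254). Without DD 2 the difference of Col1a1 was 0.45. Col3a1 measured 8.37, 8.08, 7.56 and 8.28 in DD livers, against 7.78, 7.30, 7.76 and 7.98 in NN livers, a difference of 0.37 ± 0.25, and 0.23 without NN 2. Tagln, an actin-binding protein of smooth muscle and myofibroblasts, differed by 0.52 ± 0.22 with groups apart. Lum, lumican, differed by 0.52 ± 0.16, but its NN, ND and DN means were under the floor for testing. Timp1, an inhibitor of matrix proteases that is high in fibrosis, differed by 0.09 ± 0.24, and by -0.05 without DD 2. Stellate cells are the liver's matrix makers, and of the list's 10 stellate and myofibroblast markers 5 were higher and 5 lower, with a median of -0.00. In whole liver RNA, fewer or more cells of a type cannot be told apart from less or more RNA per cell.

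Macrophage genes were mostly lower in DD. Kupffer cells are the resident macrophages of the liver sinusoids, and of 30 Kupffer and macrophage genes 25 were lower and 5 higher in DD with a median of -0.22; 3 had an unadjusted p under 0.05, all lower in DD, beside 56.2% and 2.25% over all genes. By part, 5 of 7 Kupffer receptors and markers were lower with a median of -0.06, and 10 of 11 pan-macrophage markers with -0.20. All 5 genes of regulators and iron handling were lower with a median of -0.38, and 5 of 7 recruited monocyte genes with -0.08. The list mean was -0.19, -0.04, -0.33 and -0.27 in DD livers, against 0.11, 0.10, -0.24 and 0.10 in NN livers. NN 3 lay among the DD livers and the other NN livers above all of them. Without NN 3 the median was -0.32, without DD 3 -0.13 and without NN 2 -0.14, and without DD 3 and NN 2 it was -0.12 with 22 of 30 lower. The part of these cells in other differences was not tested.

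Vsig4, a complement receptor of Kupffer cells, measured 3.36, 3.84, 4.08 and 4.29 in DD livers, against 4.20, 5.15, 4.85 and 4.65 in NN livers, a difference of -0.82 ± 0.37 (SE; unadjusted p = 0.0383) with DD 4 inside the NN range. Tfec, a MiT family transcription factor of macrophages, measured 2.35, 2.52, 2.39 and 2.67 in DD livers, against 3.17, 3.57, 3.09 and 2.74 in NN livers, a difference of -0.66 ± 0.23 with no overlap. The chemokine Ccl6 measured 6.19, 6.86, 6.68 and 6.48 in DD livers, against 7.15, 7.30, 7.33 and 6.87 in NN livers, a difference of -0.61 ± 0.20, again with no overlap though DD 2 and NN 4 came within rounding. Csf1r, the growth factor receptor of macrophages, differed by -0.52 ± 0.26 and Adgre1, which encodes the F4/80 antigen, by -0.20 ± 0.13. Clec4f, a lectin particular to Kupffer cells in rodents, differed by 0.12 ± 0.24, less than its error.

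Ptprc, the leukocyte common antigen CD45, measured 2.65, 2.85, 3.06 and 2.51 in DD livers, against 3.28, 3.26, 3.42 and 3.19 in NN livers. Every DD liver was below every NN liver, and the difference was -0.52 ± 0.16 (SE; unadjusted p = 0.00427). The 15 other leukocyte genes, Ptprc among them, counted 8 lower and 7 higher in DD with a median of -0.00, and 11 of them were dim. The T cell genes Cd3e and Cd3d, both dim, differed by -0.16 ± 0.14 and 0.25 ± 0.14, and the neutrophil gene S100a8 by 0.13 ± 0.15. Sinusoidal endothelial receptors, which clear waste from the blood, were lower in DD in 6 of 6 genes with a median of -0.23, none with an unadjusted p under 0.05. Among them were Clec4g (-0.35 ± 0.22), Oit3 (-0.27 ± 0.20), Stab2 (-0.11 ± 0.24) and Lyve1 (-0.11 ± 0.25). Stab2 and Lyve1 differed by 0.09 and 0.11 without NN 2, and by 0.02 and 0.01 without DD 3. Clec4g differed by -0.32 without NN 2, by -0.27 without DD 3 and by -0.25 without both. Oit3 differed by -0.22, -0.13 and -0.08 in these settings, the last 2 less than its error with all arrays. Over all 15 endothelial genes 11 were lower, with a median of -0.11, but without DD 3 the median was 0.01 and without NN 2 it was -0.04, while without DD 2 or NN 3 it was -0.28 or -0.19. Vwf, a marker of larger vessels, was higher in all DD livers, by 0.24 ± 0.13. Of 6 bile duct genes 3 were higher and 3 lower, with Krt7 at 0.00 ± 0.22 and Krt19 at -0.03 ± 0.16.

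**Figure D4:**
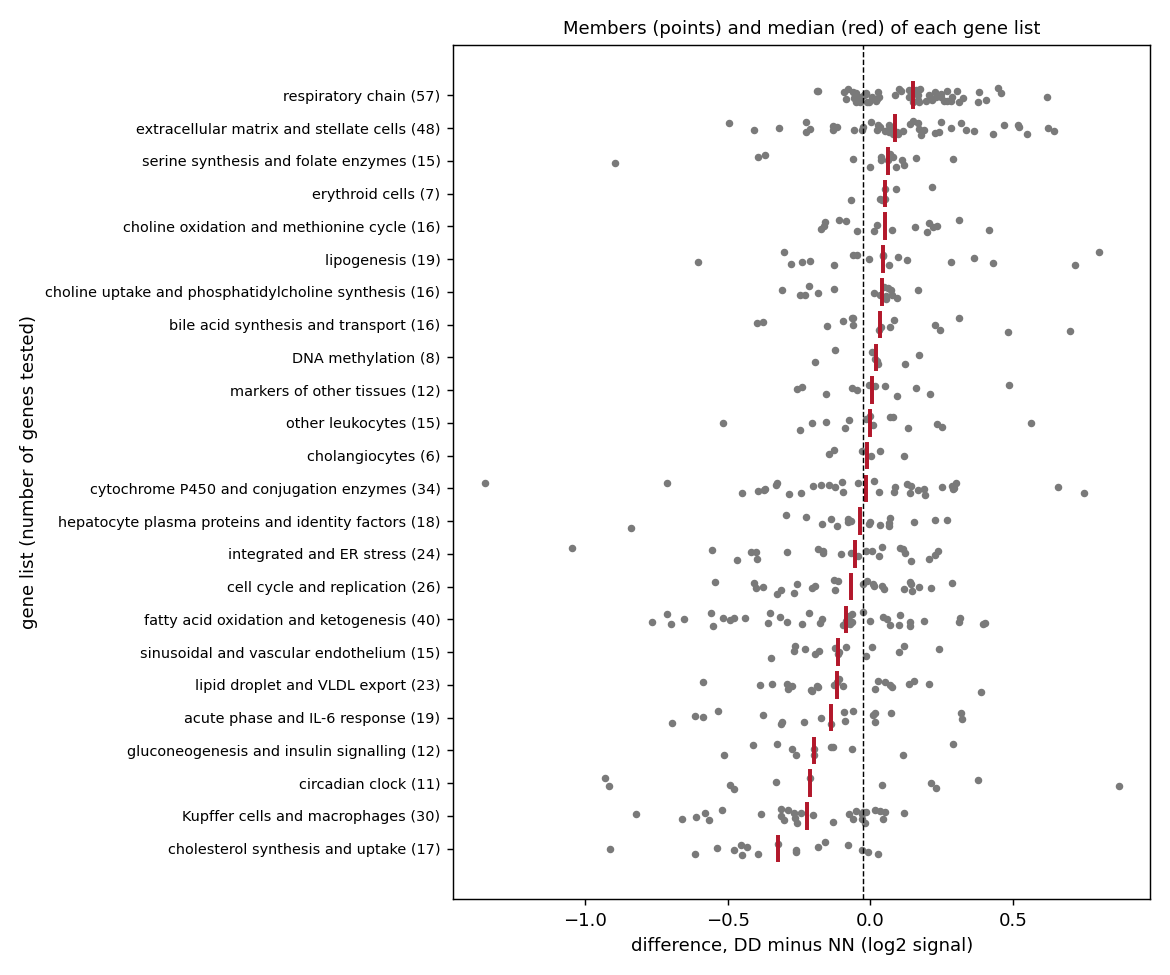
Difference DD minus NN (x axis, log2 signal) of every tested member (grey points) of 24 gene lists (y axis, number of genes tested in brackets), with each list's median in red and the median of all 12912 genes dashed at -0.03. Medians run from -0.32 for cholesterol synthesis to 0.15 for the respiratory chain.

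Genes of the hepatocyte itself stood near 0. Of 18 plasma proteins and identity factors 11 were lower and 7 higher in DD with a median of -0.04, but without DD 3 it was 8 lower and 10 higher with a median of 0.06. The largest difference was that of Afp, alpha-fetoprotein, which the liver shuts down after birth. Afp measured 6.02, 5.91, 4.79 and 5.86 in DD livers, against 5.67, 7.38, 6.78 and 6.10 in NN livers, a difference of -0.84 ± 0.47 (SE) in which DD 3 and NN 2 were the extremes, and -0.25 without both. Cytochrome P450 and conjugation enzymes counted 17 higher and 17 lower of 34 with a median of -0.02 and 0 at an unadjusted p under 0.05. Without NN 2 they were 21 higher and 13 lower with a median of 0.12, and without NN 4 12 higher and 22 lower with a median of -0.13. Cyp2b1, a drug-inducible P450, differed by -1.35 ± 0.87, at 2.05, 3.46, 3.52 and 2.09 in DD livers, against 3.42, 6.08, 2.98 and 4.05 in NN livers, and by -0.70 without NN 2. Cyp2c11, a male P450 that rises at puberty in rats, differed by 0.66 ± 0.56, and the glutathione transferase Gsta2 by 0.75 ± 0.45.

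Bile acid genes counted 9 higher and 7 lower of 16 with a median of 0.03. Without NN 2 they were 13 higher and 3 lower with a median of 0.12, and without NN 4 8 and 8 with a median of -0.04. Cyp7a1, the rate-limiting enzyme of bile acid synthesis, measured 6.68, 5.22, 5.87 and 5.34 in DD livers, against 4.40, 6.86, 7.35 and 4.33 in NN livers. Its difference was 0.04 ± 0.87, and the NN livers alone spanned more than the groups differed. Without NN 2 the difference of Cyp7a1 was 0.41. Abcb4, the canalicular pump that puts phosphatidylcholine into bile, differed by -0.38 ± 0.26, and the bile acid transporter Slc10a1 by -0.10 ± 0.25.

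Acute phase genes, made by hepatocytes under interleukin-6, counted 13 lower and 6 higher of 19 in DD with a median of -0.14. Over all genes 56.2% were lower. The lipopolysaccharide-binding protein Lbp differed by -0.70 ± 0.39 (SE; -0.37 without NN 2) and the receptor subunit Lifr by -0.54 ± 0.28. Serpina3n differed by -0.31 ± 0.14 (unadjusted p = 0.0475) and the interleukin-6 receptor Il6r by 0.32 ± 0.15 (unadjusted p = 0.0477), in opposite directions. Haptoglobin (Hp) and Crp differed by -0.06 ± 0.12 and 0.07 ± 0.14, less than their errors.

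Genes of the integrated and endoplasmic reticulum (ER) stress responses counted 14 lower and 10 higher of 24 with a median of -0.05, and 3 had an unadjusted p under 0.05, all lower in DD; over all genes 56.2% were lower, a share close to this list's, and 2.25% lower at that p. Without NN 3 the median was -0.15, without DD 2 -0.11 and without NN 4 -0.00. Creld2, an ER protein induced when folding fails, measured 5.59, 5.47, 4.08 and 4.95 in DD livers, against 5.70, 6.79, 6.09 and 5.71 in NN livers. All DD livers were below all NN livers, by -1.05 ± 0.40 (SE), a 2.07-fold lower level (unadjusted p = 0.0167). The difference was -0.50 without DD 3 and NN 2, the lowest DD and the highest NN liver. Sdf2l1, another ER folding factor, measured 4.46, 4.16, 3.99 and 4.35 in DD livers, against 4.75, 4.77, 4.62 and 4.68 in NN livers, a difference of -0.47 ± 0.20 with no overlap. The amino acid transporter subunit Slc3a2 differed by -0.55 ± 0.22, and the chaperone Hspa5 by -0.40 ± 0.20, or -0.21 without DD 3. The regulators Atf4 and Ddit3 differed by 0.01 ± 0.16 and 0.12 ± 0.17, less than their errors.

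Clock genes, whose levels swing through the day in liver, held Cry1 among the leading genes. Cry1, a repressor of the core loop, measured 3.78, 3.52, 3.21 and 4.31 in DD livers, against 5.10, 4.80, 4.29 and 4.31 in NN livers, a difference of -0.92 ± 0.28 (SE; unadjusted p = 0.00382). DD 4 lay within the NN range and the other DD livers below it. Bmal1, an activator of the loop, differed by -0.93 ± 0.46 and Npas2, its partner, by -0.49 ± 0.24. Dbp, an output gene of the loop, differed by 0.87 ± 0.64 and Per2 by 0.23 ± 0.50. The list counted 5 higher and 6 lower of 11 with a median of -0.21, and -0.06 without DD 3. No label gives the hour at which a pup was killed, so its part in these values was not tested.

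Among replication and cell cycle genes 15 of 26 were lower and 11 higher in DD with a median of -0.07, where 56.2% of all genes were lower. Without NN 2 it was 11 lower and 15 higher with a median of 0.03. The nuclease Fen1 differed by -0.38 ± 0.17 (SE; unadjusted p = 0.0409) and the helicase subunit Mcm4 by -0.54 ± 0.28, while Cdk1 differed by 0.14 ± 0.16. Gluconeogenic and insulin signalling genes counted 10 lower and 2 higher of 12 with a median of -0.20, but the median was -0.08 without NN 2, -0.11 without DD 3 and 0.02 without both. Pck1, the rate-limiting enzyme of gluconeogenesis, differed by -0.27 ± 0.81 and the growth factor binding protein Igfbp2 by -0.51 ± 0.51. DNA methylation genes, of interest because choline supplies methyl groups, differed little, with 6 of 8 higher and a median of 0.02, against 2 of 8 higher and -0.03 without DD 2. The methyltransferase Dnmt3b differed by -0.19 ± 0.14 and the dioxygenase Tet3 by 0.17 ± 0.26. Of 7 erythroid genes 6 were higher in DD with a median of 0.05, but without DD 1 or without NN 3 it was 3 (medians -0.03 and -0.04); of 12 genes of pancreas, muscle, fat and gut 6 were higher and 6 lower with a median of 0.01.

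The groups whose diet changed at birth give the setting for these small differences. With all arrays kept, DD against NN had the fewest genes at an unadjusted p under 0.05 of the 5 comparisons of groups fitted here. Without DD 2 its count was 808, above the 598 of ND minus NN with all arrays, so this rank depended on that liver. DD minus ND had 1132 (8.77%), DD minus DN 2385 (18.5%), ND minus NN 598 (4.63%) and DN minus NN 1732 (13.4%), against 462 for DD minus NN. Only Tfec passed the adjusted test in any of these, 1 gene in DD minus DN (0.00774%). These comparisons share arrays, so their counts are not independent, and counts also depend on the 5 arrays of DN. The median size of a difference was 0.116 in DD minus NN, 0.151 in DD minus ND, 0.183 in DD minus DN, 0.131 in ND minus NN and 0.162 in DN minus NN.

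**Figure D5:**
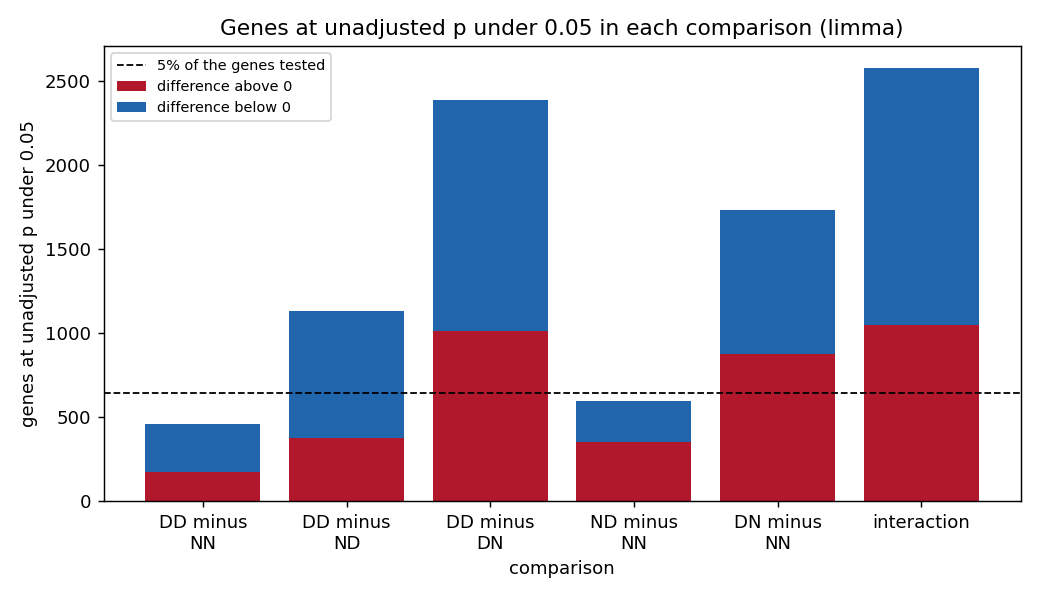
Number of genes at an unadjusted p under 0.05 (y axis) in each comparison (x axis), split by the sign of the difference, with the dashed line at 5% of the 12912 genes tested. The bar of DD minus NN, 462, is the lowest, and those of DD minus DN and of the interaction are the highest.

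Whether the effect of the lactation diet depended on the pregnancy diet was tested as an interaction, (DD minus DN) minus (ND minus NN), in which a value below 0 means that the unchanged groups DD and NN together lay below the changed groups ND and DN. No gene passed (0 of 12912 by limma, smallest adjusted p = 0.114), while 2580 genes had an unadjusted p under 0.05 (20.0%), 1049 above 0 (8.12%) and 1531 below 0 (11.9%). This count depended on single arrays: without NN 2, 639 genes passed, and without DD 3 and NN 2, 242. Array spread (the SD of its values) was 1.67, 1.74, 1.62 and 1.66 in DD and 1.68, 1.79, 1.66 and 1.68 in NN. It was 1.75, 1.69, 1.73 and 1.79 in ND and 1.74, 1.77, 1.72, 1.79 and 1.73 in DN. Except in DD 2 and NN 2, the spread of DD and NN arrays was thus below that of every ND and DN array. With the spread of each array as a covariate, 580 genes had an unadjusted p under 0.05.

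Plgrkt, which also separated DD from NN, had an interaction of -0.81 ± 0.15 (SE), with means of 2.57 in DD, 3.23 in ND, 3.08 in DN and 2.93 in NN livers. Trpm7, a magnesium and zinc channel with a kinase domain, averaged 4.88 in DD, 5.60 in ND, 5.85 in DN and 4.74 in NN livers, an interaction of -1.82 ± 0.37, while DD and NN differed by 0.14 ± 0.27, less than its error. Ccar1, a coactivator of transcription, averaged 4.79 in DD, 5.73 in ND, 5.68 in DN and 5.03 in NN livers, an interaction of -1.59 ± 0.31. On the other side, Hspb9, a small heat shock protein, averaged 3.97 in DD, 3.54 in ND, 3.41 in DN and 4.03 in NN livers, an interaction of 1.05 ± 0.25. In Trpm7, Ccar1 and Hspb9 the 2 unchanged groups lay together and the changed groups lay together on 1 side of them. Leading interaction genes were named for their small p, which favours such an arrangement. Mat2a, the extrahepatic form of methionine adenosyltransferase, averaged 6.64 in DD, 6.46 in ND, 5.92 in DN and 6.81 in NN livers, an interaction of 1.07 ± 0.27 beside a difference of -0.16 ± 0.20 between DD and NN.

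Genes leading in DD against NN took both forms when ND and DN were set beside them, with NN shared by all 3 differences. Psph differed from NN by -0.89 in DD, -0.75 in ND and -0.82 in DN, Dcn by 0.62, 0.57 and 0.67, and Marchf2 by 0.66, 0.42 and 0.71. For these 3 genes the NN mean lay apart from the means of the other groups. Gchfr differed from NN by 0.68 in DD, 0.07 in ND and 0.05 in DN, Klk6 by 0.48, -0.01 and 0.03, and Ptprc by -0.52, 0.13 and 0.11. For these it was the DD mean that lay apart. All the genes of both forms were named for their small p in DD against NN, which favours an NN or a DD mean that lies apart. How many of all genes take each form was not counted. The interaction of Ptprc was -0.75 ± 0.22 (SE; unadjusted p = 0.00282, adjusted p = 0.118) and that of Gchfr 0.56 ± 0.29 (adjusted p = 0.278), neither of which passed.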

How the data were processed

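RNA from whole liver was hybridised to Affymetrix whole-transcript arrays, 1 array per pup, 17 in all. The deposited table holds log2 signals that the authors summarised with RMA (robust multi-array average, with background correction and quantile normalization), per the submitters' processing notes, which also name the affy package; versions are not given in the sources used here. Of 36685 probe sets, 14824 carried 1 gene symbol in the platform annotation, 829 carried several and 21032 are unnamed here; 14670 of the 14824 matched RefSeq by Entrez ID. Where several probe sets named a gene (234 genes), the brightest on average stood for it. No further normalization was applied.

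Genes above 1.73 in at least 4 arrays were tested with limma (version 3.58.1, R 4.3.3; lmFit and eBayes) on 4 group means over 17 arrays, with Benjamini-Hochberg adjustment over 12912 genes. The number of arrays limits the precision. The test was checked on simulated data. Alternatives covered filters, probe set choice, variance models, normalization, array spread, a replicate block and leaving out arrays.

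The comparison, the 24 gene lists (692 entries, 504 tested) and the tests were chosen with earlier results of these data known. Named genes were, in each direction, the 12 of smallest p and the 8 of largest non-overlapping difference, 3 dim genes, preset anchors, up to 4 members per list and leading interactions; Mt3, Mtf1 and Per2 were looked up after values were seen. Promoters were taken from RefSeq (GRCr8).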

Additional observations from a re-analysis of the deposited data

Results flagged for a closer look

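In groups of 4 livers, a lowest or highest liver was set against the gap to its nearest neighbour (Dixon's test at the 95% level). Over the named genes and list means, 16 of 328 groups had such a liver, where chance at 1 in 20 gives 16.4. In DD, the liver DD 3 was apart for Ttr (11.03), Zfp494l1 (3.95, the highest), Eci1 (5.81), Chkb (4.01), Abhd5 (6.04), Afp (4.79) and Il6r (6.24). DD 2 was apart for Hspb9 (3.76) and Etnk1 (4.38, the highest), and DD 4 for Nnmt (3.07). In NN, NN 3 was the lowest for Dcn (2.64), Csf1r (4.30), Clec4g (5.88) and the mean level of the Kupffer and macrophage list (-0.24). NN 4 was the lowest for Gnmt (6.45), and NN 2 the highest for Mt2A (8.09). Their part in the differences was not tested beyond leaving out these livers.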

How the results depend on the processing

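No gene of DD against NN passed an adjusted p of 0.05 in any setting of limma tried, the trended robust variance (491 genes at an unadjusted p under 0.05) and array weights (651) included. The unadjusted count of 462 became 279 under a stricter filter on low signals and 1857 over all 36685 probe sets, and ran from 330 to 808 with 1 array left out, 808 without DD 2. The share of these genes higher in DD was 37.2%, but 62.1% over all probe sets, and among genes without overlap 51.6% with no filter, against 43.5%. Interactions passing the adjusted test ran from 0 to 639 with 1 array left out, 639 without NN 2, and numbered 242 without DD 3 and NN 2, a pair chosen after seeing the data.

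Among list medians, choline uptake and phosphatidylcholine synthesis ran from -0.0776 (without NN 3) to 0.0795 (without NN 4), and cholangiocytes from -0.11 (without NN 2) to 0.0243. The median was 0.25 for choline oxidation without DD 3 and NN 2, and -0.0895 for other leukocytes under the stricter filter. With 1 array left out, the difference DD minus NN ran from -0.0509 to 1.81e-05 in array spread, from -0.0181 to 0.0351 in array median, and from -14.7 to 1.49 on the first principal component; the positive spread and component came without NN 2. Of 136 named genes, 34 had a difference under its SE and no direction was read from them; 24 of the 34 changed sign with some array left out. Of the other 102, the sign changed in 3, Chkb, Ccar1 and Shmt2. Chkb ran from -0.356 to 0.0261 with 1 array left out, and without DD 3 and NN 2 Chkb was at 0.0165, Ccar1 at 0.13 and Shmt2 at 0.0522. The causes were not tested.

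The labels give DD and NN the same replicate numbers but state no pairing, and the numbers were not taken as pairs. Same-numbered livers deviated together with correlations of 0.02, 0.53, 0.36 and 0.11, and differently numbered ones with correlations from -0.43 to 0.21. The values of 0.53 and 0.36 were thus above all of the latter. With a replicate block 566 genes had an unadjusted p under 0.05 in limma and 0 passed. In the simulated arrays, with 4 in each of DD and NN, most 1.5-fold changes were missed.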
